A study of Mus musculus with 7 samples.

Results

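The adult sex difference of the mouse adrenal gland was described by setting 1 male pool against 1 female pool of glands taken at 12 weeks of age, each made from 4 glands. These were 2 of 7 libraries, and a gene entered the comparison if its normalized counts averaged 10 or more across all 7 and it did not lie on the X or Y chromosome, which left 16151 of 35976 genes. A normalized count is a read count divided by a library's size factor, and it is not corrected for gene length. All mice were of the inbred strain C57BL/6J, and no genotype or treatment was given. The remaining pools came from an embryonic stage just before birth (E18.5; 40 unsexed glands), from postnatal day 1 (P1; 16 male and 22 female glands) and from 2 weeks (6 glands of each sex). With 1 pool per sex and age there was no replicate error. The number of mice per pool is not stated, and 4 glands cannot come from more than 4 mice.

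The adrenal gland joins a steroid-making cortex to a medulla of chromaffin cells that make catecholamines. Cortical steroids are built from cholesterol and later inactivated, in part by reduction of the A ring of the steroid, where 5-alpha and 5-beta reductases act on the same bond with opposite geometry. The mouse cortex also holds an inner layer, the X-zone, which is known to regress in males at puberty and to persist in females until the first pregnancy.

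The 12-week libraries held 15184210 (male) and 19303708 (female) reads in genes, within a range of 15184210 to 23551289 over the 7 libraries. Mitochondrially encoded genes took 7.93% of the male and 10.03% of the female reads. The sex labels of the 12-week pools held: Xist RNA, which coats the inactive X chromosome of females, was at 5.59 normalized counts in the male and 22167 in the female pool, and 4 Y-linked genes had 1401 to 4285 in the male pool against 0 to 1.13 in the female pool. The library labelled P1 female, in contrast, held 1153 reads of these 4 Y-linked genes. For that reason, where a gene passed in limma and its adjusted p is given, the value without the P1 pair follows. Other genes have the value with the P1 pair only, or none. The tissue label was checked on marker genes: Star, which carries cholesterol into the mitochondrion, had 372882 and 357347 normalized counts, Th, the first enzyme of catecholamine synthesis, had 4970.4 and 5396, and 9 of 10 kidney markers were at or under 3 reads in both 12-week pools. Of 12 ovary and testis markers 2 were abundant enough to compare, with summed levels of 28.0 (male) and 78.1 (female).

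The 4 genes below stand for large adult differences in both directions, each called in the test described further on, and the 250 bases before the transcription start that RefSeq lists for each (assembly GRCm38.p6, mm10) are printed 5′ to 3′ on the gene's strand. Capitals mark AAGGTCA, the core half-site of NR5A1 (steroidogenic factor of the cortex) and of the NR4A receptors. The windows are chr6:37529923-37530172 (plus strand) for Akr1d1, chr17:74047861-74048110 (minus) for Srd5a2, chr13:49248295-49248544 (minus) for Susd3 and chr7:27119705-27119954 (plus) for Cyp2f2.
Akr1d1: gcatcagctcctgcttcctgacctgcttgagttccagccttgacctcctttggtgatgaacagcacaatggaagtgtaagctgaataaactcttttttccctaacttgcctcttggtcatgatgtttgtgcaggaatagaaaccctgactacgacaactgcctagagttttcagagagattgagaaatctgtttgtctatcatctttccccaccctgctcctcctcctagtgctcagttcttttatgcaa
Srd5a2: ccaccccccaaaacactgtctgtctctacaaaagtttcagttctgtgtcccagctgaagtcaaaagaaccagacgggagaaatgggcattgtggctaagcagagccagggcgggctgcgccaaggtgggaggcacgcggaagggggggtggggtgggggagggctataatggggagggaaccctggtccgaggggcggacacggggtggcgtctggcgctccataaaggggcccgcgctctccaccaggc
Susd3: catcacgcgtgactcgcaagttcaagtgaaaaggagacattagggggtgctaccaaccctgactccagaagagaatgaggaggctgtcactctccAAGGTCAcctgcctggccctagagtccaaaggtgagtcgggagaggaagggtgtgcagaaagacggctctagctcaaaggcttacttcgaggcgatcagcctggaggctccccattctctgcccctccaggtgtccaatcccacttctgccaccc
Cyp2f2: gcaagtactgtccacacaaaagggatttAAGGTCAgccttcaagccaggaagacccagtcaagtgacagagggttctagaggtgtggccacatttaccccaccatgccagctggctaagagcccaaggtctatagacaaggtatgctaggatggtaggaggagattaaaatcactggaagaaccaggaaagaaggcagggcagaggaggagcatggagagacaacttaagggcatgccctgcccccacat

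The half-site stood 155 bases before the start in Susd3 and 222 bases before it in Cyp2f2, and these letters were not in the windows of Akr1d1 and Srd5a2. The windows of Akr1d1 and Susd3 overlap the annotated span of their genes. A match is a description of letters, not a binding site.

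At least 2-fold differences were found in 1414 of the 16151 genes, on the log2(normalized count + 1) scale and as male minus female: 775 (4.8%) were higher in the male pool and 639 (3.96%) in the female pool. The median difference over all compared genes was 0.02. Counts for the gene lists below are to be read beside the shares of 4.8% and 3.96%. The balance turned with the size of the difference, with 117 genes at least 4-fold higher in the male and 144 in the female, 26 and 44 at 8-fold, and 8 and 14 at 16-fold. For 146 of the male-higher and 199 of the female-higher genes the whole 95% interval of the ratio of reads, an exact binomial interval that covers counting error only, lay beyond 2-fold. Genes with no read in the lower pool, 117 male-higher and 106 female-higher, were given no interval and are not in these counts. Folds below are ratios of normalized counts with this interval in brackets. Per library, 3 reads correspond to 4.19 (male) and 3.39 (female) normalized counts, and folds against a pool with no read are lower bounds against that level.

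**Figure D1:**
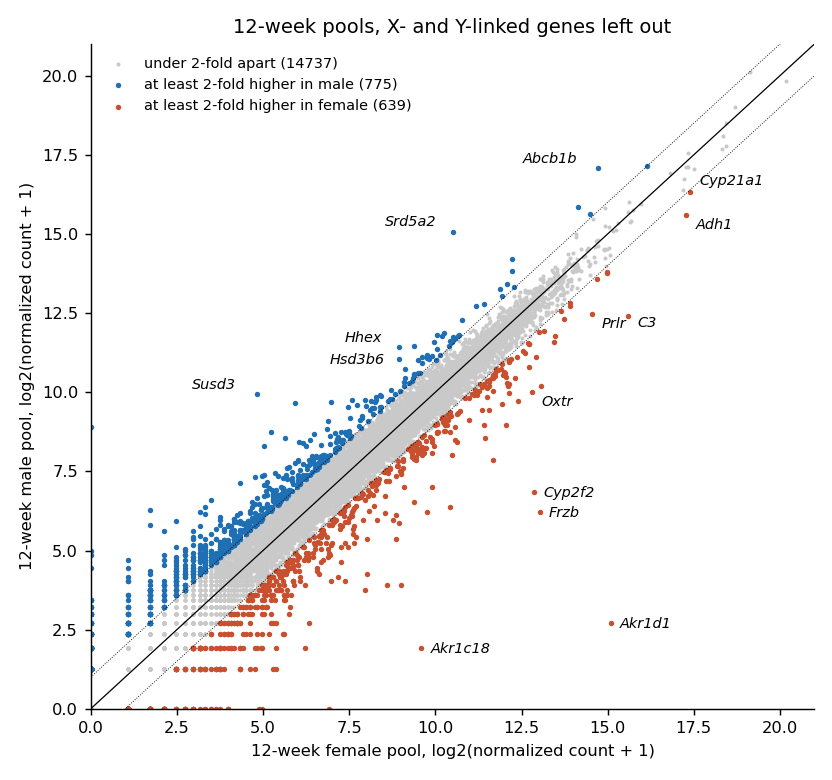
Normalized counts of 16151 genes in the 12-week female pool (x axis) and the 12-week male pool (y axis), both as log2(normalized count + 1), with 1 point per gene. The solid line marks equal levels and the dotted lines 2-fold; Akr1d1 and Srd5a2 stand far from the line on opposite sides, at log2 differences of -12.36 and 4.55.

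A limma fit supplied a test across genes. It took the P1 pools as 1 pair and the 2-week pools as another. The 2 pools of each of these ages were treated as replicates whatever their sex, so earlier sex differences widened the spread. The 12-week difference was set against that spread with 2 residual degrees of freedom. Without the P1 pair only 1 was left, and the spread came from the 2-week pair alone. Many genes shared 1 adjusted p in that fit, so it does not rank them. The 12-week pools were thus assumed to vary like the earlier ones, which was not tested. Markers of some other tissues differed within the earlier pairs. Summed levels of 10 skeletal muscle markers were 321 (male) and 12478 (female) at 2 weeks, and 74.1 and 62.2 at 12 weeks. For 10 kidney markers they were 9333 and 2591 at P1, and 33.6 and 44.1 at 12 weeks. At an adjusted p of 0.05, 7 genes were higher in the male (0.0433% of those compared) and 26 in the female (0.161%). The male-higher genes were Srd5a2, Hhex, Prph, Fam198b, Myo1a, Susd3 and Cntn5. Among the female-higher genes were Akr1d1, Cyp2f2, Frzb, Serpinb1a, Sik1, Elfn1, Oxtr, 4930486L24Rik, Ugt1a1, Nrep, Prr16, Prlr, Fam169a, Pde7a, Lypd6, Amotl2, Xrra1, C3, Gabrg3, Gm973, Sbk1, Mapt, Col5a3, Greb1l and Masp1. With eBayes run without a trend no gene passed (adjusted p 0.0844 for Akr1d1, Cyp2f2 and Srd5a2; 1870 genes at an unadjusted p under 0.05). Without the P1 pair 3 genes passed (Cyp2f2, Frzb and Srd5a2), and edgeR's quasi-likelihood test on the recovered reads called 4 (Akr1d1, Cyp2f2, Serpinb1a and Srd5a2), so the other names passed in neither. In simulated data 12.8 to 18.8% of the limma calls were false. The simulated spread followed edgeR's trend over gene level, with no difference between the sexes at P1 or 2 weeks. Whether this share holds for the real calls was not tested.

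**Figure D2:**
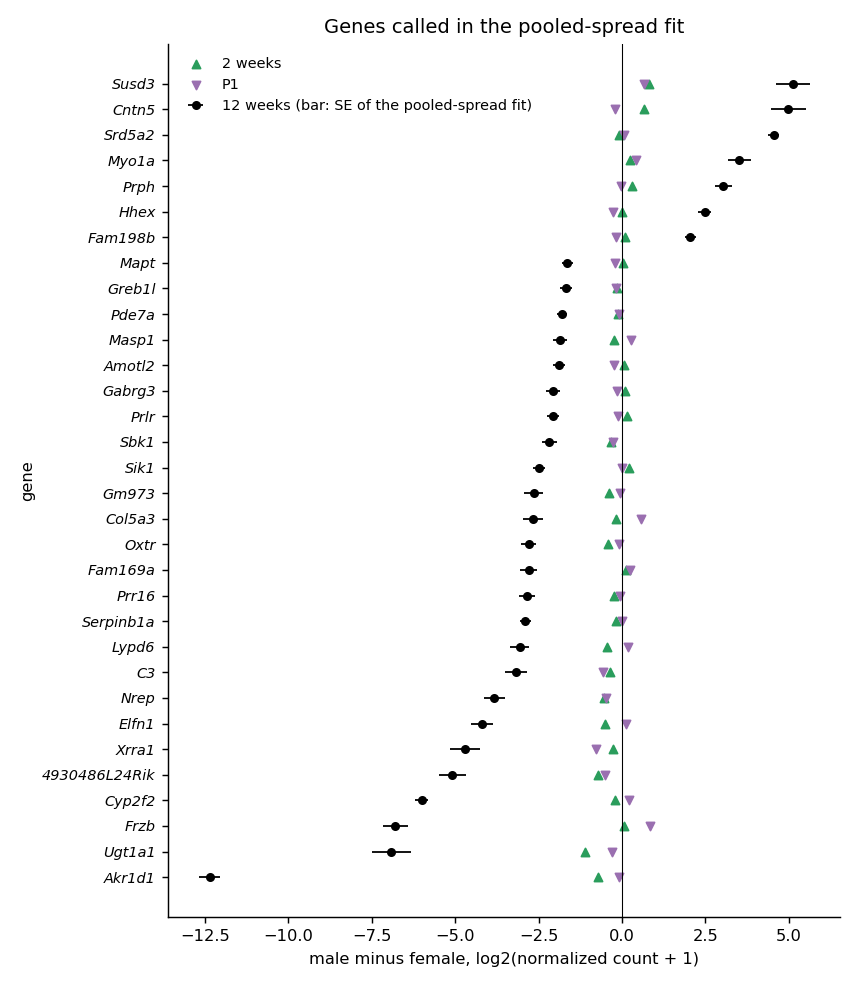
Male minus female differences, log2(normalized count + 1), of genes called in the pooled-spread limma fit (y axis). Black points are 12 weeks with the standard error of the fit, and run from -12.36 to 5.13. Triangles are the 2-week and P1 differences, which lie near 0 for most of these genes. They were used for the spread, so genes with small earlier differences passed more easily, and their position is no separate result.

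The steroid A-ring reductases gave the clearest contrast. Akr1d1, the 5-beta reductase (chr6:37529978-37574921), had 945 normalized counts at E18.5, 1364 and 1447 in the P1 male and female, 5393 and 8807 at 2 weeks, and 5.59 and 34772 at 12 weeks. The adult male pool, with 4 reads, was the lowest of the 7 libraries and the adult female pool the highest, and the ratio at 12 weeks was 6217 (95% interval 2428 to 22821). Its log2 difference of -12.36 ± 0.32 (SE) had an adjusted p of 0.000243 in limma, 0.102 without the P1 pair.

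Srd5a2, a 5-alpha reductase that also converts testosterone to dihydrotestosterone (chr17:74014891-74047860), had the opposite pattern. It had 95.8 normalized counts at E18.5, 139.9 and 135 at P1, 477 and 508 at 2 weeks, and 34433 in the adult male against 1471 in the adult female. Both adult pools stood above every earlier library, and the male exceeded the female 23.4-fold (22.1 to 24.8; log2 difference 4.55 ± 0.17, SE; adjusted p 0.000730 in limma, 0.0492 without the P1 pair). Srd5a1, a second 5-alpha reductase, was lower in the male pool at 291 against 680.0 (2.34-fold, 1.99 to 2.75), with an adjusted p of 0.0974 in limma. Srd5a3, which acts in dolichol synthesis, had 414 and 459. Among 24 reductases and hydroxysteroid dehydrogenases with more than 3 reads in at least 1 adult pool, 3 exceeded 2-fold on the male side and 5 on the female side, 1 in each direction passed in limma, and the median log2 difference was -0.10.

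**Figure D3:**
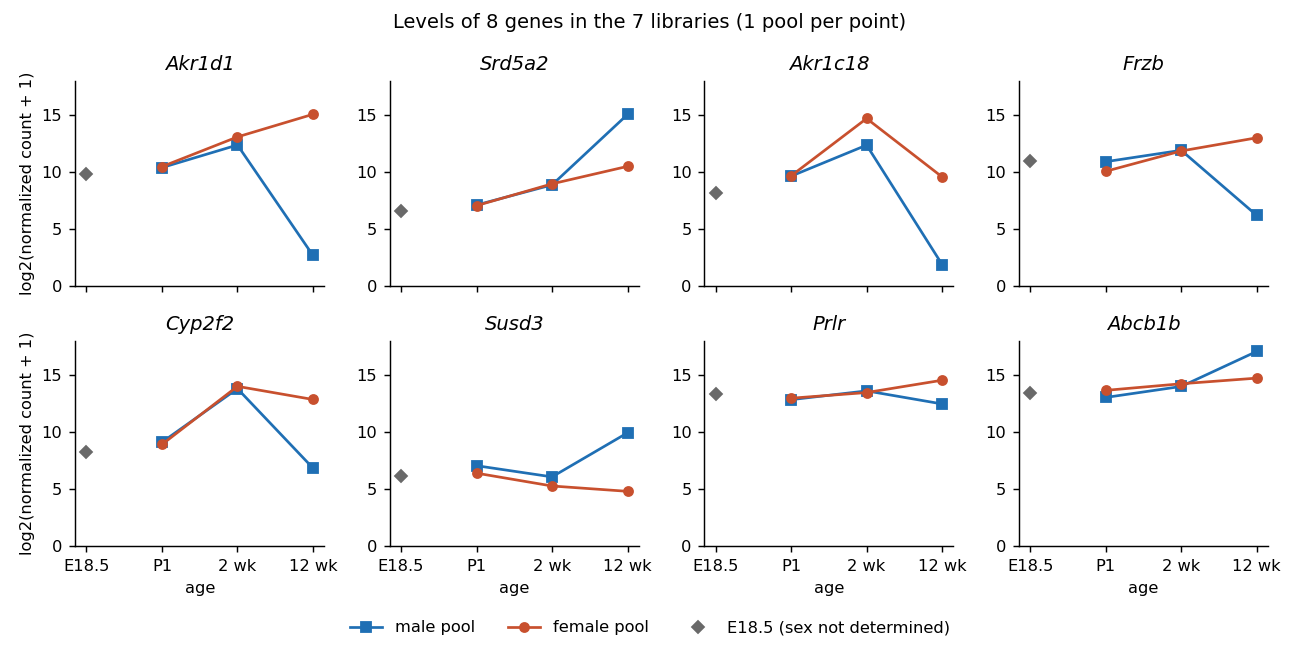
Levels of 8 genes as log2(normalized count + 1) (y axis) by age (x axis), with 1 pool per point; blue squares are male pools, orange circles female pools and the grey diamond the unsexed E18.5 pool. The male and female lines part mainly between 2 and 12 weeks, except for Akr1c18, whose 2-week values were already 5346 and 26949.

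Both X-zone markers were higher in the adult female. Akr1c18, the progesterone-inactivating 20-alpha-hydroxysteroid dehydrogenase, had 283 normalized counts at E18.5, 811 and 827 at P1, 5346 and 26949 at 2 weeks, and 2.80 (2 reads) and 774 at 12 weeks. The adult ratio was 277 (76.3 to 2289.8), and the adult female itself lay below both 2-week pools. Pik3c2g, a class II phosphoinositide 3-kinase subunit, had no read in the adult male and 28.3 normalized counts in the adult female, at least 6.74-fold higher, after 60.5 and 500.2 at 2 weeks. Neither passed in limma (adjusted p 0.0630 and 0.224), where the differences of both genes at 2 weeks counted as spread. In bulk tissue, fewer cells of a type and less RNA per cell cannot be told apart, here and in all that follows.

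Genes of cortical steroid synthesis went both ways between the adult pools. Of 13 genes 6 were on the male and 7 on the female side, 1 was at least 2-fold higher in the male and 1 in the female, and none passed in limma. The median log2 difference was -0.04, and the summed level was 886902 (male) and 1159390 (female). Hsd3b6, a 3-beta-hydroxysteroid dehydrogenase isoform, had 1699 in the male and 556 in the female pool (3.06-fold, 2.75 to 3.40), after 1213 and 1062 at 2 weeks. Cyp21a1, the 21-hydroxylase, had 81456 and 171261, 2.103-fold higher in the female. Cyp11b1, which makes corticosterone, had 85022 and 150103, and Hsd3b1, the abundant isoform, 225943 and 355249. Cyp11a1, the side-chain cleavage enzyme, differed by a log2 value of -0.04. The transcription factor gene Nr5a1 had 6146 and 11600.0 (1.89-fold higher in the female, adjusted p 0.124 in limma), and Gata4, a gonadal and fetal adrenal factor, 14.0 and 73.5. None of 12 genes marking the zona glomerulosa, the aldosterone-making outer layer, reached 2-fold, and its aldosterone synthase Cyp11b2 had 2525 and 2219.

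Receptors of gonadal and pituitary hormones were at least 2-fold higher in the female pool in 4 of 8 cases and in the male in 0, with 3 of 8 on the male side at any size. The median log2 difference was -0.87, -0.70 with levels under 3 reads raised to 3 reads, and -0.30 among the genes with a mean of at least 50. Both ovary and testis markers that could be compared were also at least 2-fold higher in the female pool, Gdf9, an oocyte growth factor, at 19.6 and 50.9 and Ddx4, a germ cell helicase, at 8.39 and 27.2; their part in the receptor values was not tested. Prlr, the prolactin receptor, had 10576 normalized counts at E18.5, 7365 and 8051 at P1, 12555 and 11353 at 2 weeks, and 5679 and 23987 at 12 weeks. The adult male was the lowest and the adult female the highest of the 7 libraries, 4.22-fold apart (4.08 to 4.37), with an adjusted p of 0.0218 in limma, 0.139 without the P1 pair. Esr2, oestrogen receptor beta, had 4.19 (3 reads) and 46.4, a ratio of 11.1 (3.53 to 55.8). Amhr2, the anti-Müllerian hormone receptor, had 12.6 and 43.0. Ghr, the growth hormone receptor, was on the male side at 3311 against 1863. Outside that list, Oxtr, the oxytocin receptor, had 2363 at E18.5, 2062 and 2170.1 at P1, 4929 and 6534 at 2 weeks, and 1032 and 7154 at 12 weeks. The adult female was 6.93-fold higher (6.42 to 7.49; adjusted p 0.0203 in limma, 0.139 without the P1 pair), and the adult male lay below every earlier library.

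Frzb, a secreted inhibitor that binds Wnt ligands (chr2:80411970-80447396), had 2027 normalized counts at E18.5, 1954 and 1089 at P1, 3903 and 3748 at 2 weeks, and 74.1 in the adult male against 8345 in the adult female. The adult pools lay on either side of all 5 earlier libraries, 113-fold apart (86.0 to 150.5; log2 difference -6.80 ± 0.37, SE; adjusted p 0.00549 in limma, 0.0233 without the P1 pair). Its relative Sfrp1 (850.1 and 761) differed by less than 2-fold, as did Dkk3 (877 and 839). Of 10 secreted Wnt inhibitors above 3 reads, 1 was at least 2-fold higher in the male and 2 in the female, and of 21 Wnt ligands, agonists and targets, 1 and 0.

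C3 and Masp1, genes of the complement system, and Serpinb1a were picked out after their values were seen. Complement genes were not counted as a set, and C1qa, C1qb and C1qc, held in the macrophage list, did not reach 2-fold. C3, the central complement component, had 15134 normalized counts at E18.5, 19260.4 and 28704 at P1, 3355 and 4278 at 2 weeks, and 5437 and 49200.1 at 12 weeks. The adult female held the highest level of the 7 libraries and exceeded the male 9.05-fold (8.76 to 9.35; adjusted p 0.0327 in limma, 0.139 without the P1 pair). Masp1, a protease of the lectin pathway, had 1391 and 5038 (3.62-fold; adjusted p 0.0458 in limma, 0.139 without the P1 pair). Serpinb1a, an inhibitor of leukocyte proteases, had 373 and 2782, after 2226 and 2536 at 2 weeks (7.45-fold; adjusted p 0.00842 in limma, 0.139 without the P1 pair).

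Enzymes and carriers of foreign compounds differed gene by gene. Cyp2f2, a cytochrome P450 that oxidises naphthalene and other small aromatics (chr7:27119955-27133660), had 307 normalized counts at E18.5, 555 and 483 at P1, 14366 and 16540.0 at 2 weeks, and 115 and 7451 at 12 weeks. Both adult pools lay below both 2-week pools, the male further, and were 65.0-fold apart (52.3 to 81.8; log2 difference -6.01 ± 0.19, SE; adjusted p 0.000372 in limma, 0.0492 without the P1 pair). Cyp2e1, an ethanol-inducible P450, was higher in the male pool at 6816 against 2306. Of 43 compared P450 genes of families 1 to 4, 24 were at or under 3 reads in both adult pools, and of the other 19, 2 exceeded 2-fold on the male side and 1 on the female side. Ugt1a1, the bilirubin glucuronosyltransferase, had no read in the adult male and 119.9 normalized counts in the female, at least 28.6-fold higher, and reads could be split with other Ugt1a genes, which share its later exons. Adh1, an alcohol and retinol dehydrogenase, had 49614 and 159358, the largest female-higher difference in normalized counts among genes at least 2-fold apart. The glutathione transferase Gstm1 had 2508 and 5984, and of 18 such genes 2 exceeded 2-fold on the female side and 0 on the male side.

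Abcb1b, a P-glycoprotein that exports drugs and steroids, had the largest male-higher difference in normalized counts among genes at least 2-fold apart: 10976 at E18.5, 8431 and 12959.8 at P1, 16436 and 19349.9 at 2 weeks, and 137924 and 27248 at 12 weeks. Both adult pools were above all earlier libraries and 5.06-fold apart (4.99 to 5.13), with an adjusted p of 0.0840 in limma. Its near copy Abcb1a had 2157 and 1328, and reads could be split between the pair.

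Most genes of cholesterol synthesis, uptake and storage were less than 2-fold apart. Of 19 cholesterol synthesis genes 1 was at least 2-fold higher in the male and 2 in the female, with a median log2 difference of 0.20. Lipa, the lysosomal acid lipase, had 3075 and 11164, and Abca1, a cholesterol exporter, 13900.3 and 32109.6. These were 2 of 14 uptake and storage genes at least 2-fold higher in the female, against 0 in the male. The desaturase genes Scd2 (14247 and 32270.2) and Fads2 (12270.1 and 26258) were also higher in the female pool.

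The immediate early genes, transcribed within minutes of a stimulus, did not form 1 block. Nr4a1, an orphan nuclear receptor, had 1174 and 8493 (7.23-fold higher in the female), Nr4a2 502 and 2718, and Fosb 68.5 and 467. Jun (5654 and 2875), Egr1 (405 and 204) and Fos (99.3 and 63.4) were higher in the male pool by less than 2-fold. Over 16 such genes 4 exceeded 2-fold on the female side and 0 on the male side, with a median log2 difference of 0.04 and no call in limma. Sik1, a kinase induced by cyclic AMP, had 2147 and 1856 at 2 weeks and 257 and 1437 at 12 weeks (5.59-fold; adjusted p 0.0203 in limma, 0.139 without the P1 pair).

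Among genes higher in the male pool, Susd3, which encodes a sushi-domain membrane protein, had 70.6 normalized counts at E18.5, 133 and 83.9 at P1, 66.7 and 37.9 at 2 weeks, and 984 and 27.2 at 12 weeks. The adult male was the highest and the adult female the lowest of the 7 libraries, 36.2-fold apart (24.2 to 57.0; log2 difference 5.13 ± 0.51, SE; adjusted p 0.0321 in limma, 0.139 without the P1 pair). The homeobox gene Hhex had 2740.4 and 489.9 after 426 and 425 at 2 weeks (5.59-fold; adjusted p 0.0203 in limma, 0.139 without the P1 pair). Myo1a, a brush-border myosin, had 426 and 36.2, with 2-week values of 149 and 124 between them. Fam198b had 2789 and 672, and the contactin gene Cntn5 30.8 against no read, at least 9.06-fold higher. Prph, the intermediate filament of peripheral neurons, had 72.7 and 7.92, both far below the 2-week 803 and 655. Acan, the cartilage proteoglycan aggrecan (815 and 60.0), and Kcnk1, a potassium channel subunit (830.5 and 123), were higher in the male without passing in limma. Prss35, a serine protease relative, had 18925 and 4759, and Acsbg1, an acyl-CoA synthetase, 10894 and 4291.

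The largest male-higher log2 difference among genes with at least 100 counts (8.89) belonged to Gm39552, for which no chromosome was found. It had 473 normalized counts in the adult male and no read in the adult female, 165 and 0 at 2 weeks, and 184 and 9.93 at P1. Its counts were present and absent in the same pools as the Y-linked genes, so whether the rule on sex chromosomes would leave it out could not be decided.

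Chromaffin genes were close between the adult pools, with 1 of 18 at least 2-fold higher in each. Pnmt, which makes adrenaline, had 577 and 1206, and Penk, the enkephalin precursor, 851 and 393. None of 14 macrophage markers reached 2-fold, while 11 were on the male side and 3 on the female side. Their median log2 difference was 0.32, and their summed level was 15992 (male) and 14784 (female). Beside that, Gpnmb, a lysosomal glycoprotein of lipid-laden macrophages, had 81.1 and 1361, and Atp6v0d2, a proton pump subunit, 18.2 and 257, neither passing in limma. The class II presentation genes had 2 of 10 at least 2-fold higher in the male and 0 in the female (median log2 difference 0.70). Neb, the giant skeletal muscle protein nebulin, had 72.7 and 867, while the summed level of 10 muscle markers was 74.1 and 62.2.

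Markers of several other cell types were on the male side of the adult comparison. Of 12 adipocyte markers 3 exceeded 2-fold on the male side and 0 on the female side (summed 54697 and 39570), among them Lep, which encodes leptin, at 334 and 70.1. Of 7 erythroid markers above 3 reads 3 exceeded 2-fold on the male side and 0 on the female side, with 6 male-higher at any size (summed 12652 and 5267). For 8 Schwann markers the counts were 3, 0 and 7 (summed 1191 and 678). For 10 liver markers they were 3, 0 and 9 (summed 8111 and 6215). For 12 endothelial markers they were 0, 0 and 9 (summed 29652 and 23603), with a median log2 difference of only 0.25. The part of these cells in the male-higher genes was not tested.

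**Figure D4:**
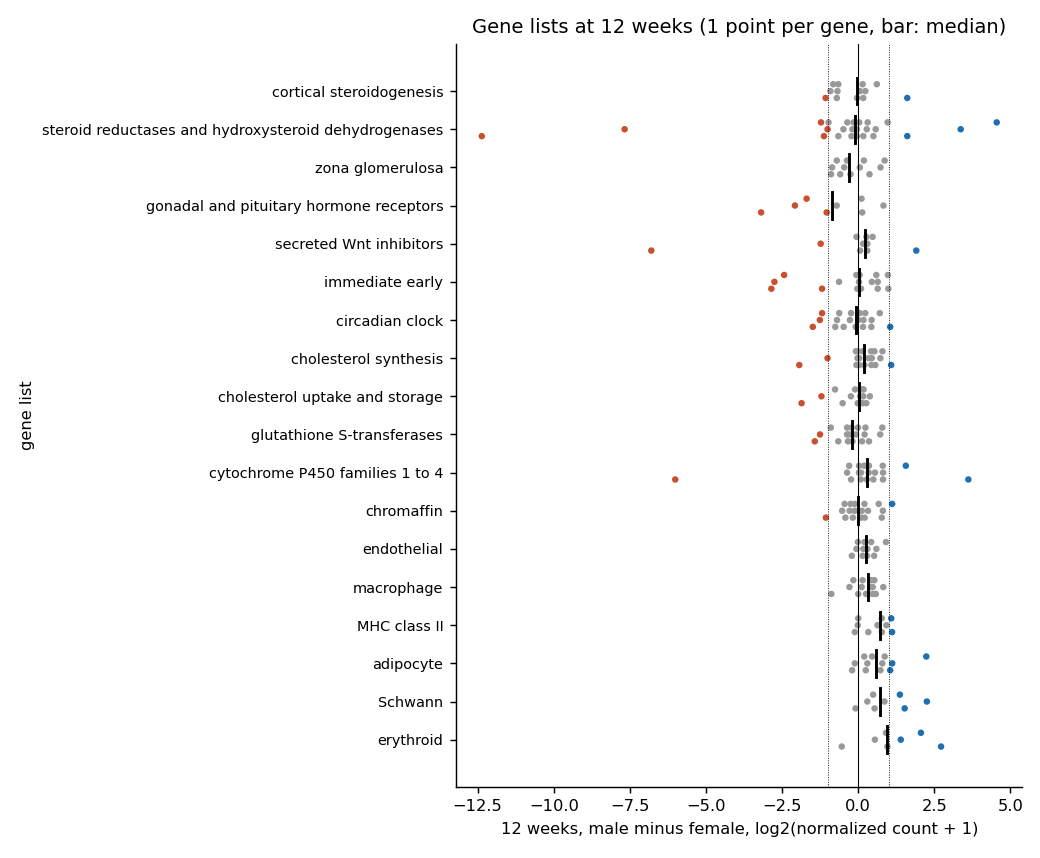
Male minus female differences at 12 weeks, log2(normalized count + 1), for the genes of 18 lists (y axis), leaving out genes at or under 3 reads in both pools. Each point is a gene, coloured where it passes the dotted 2-fold lines, and the bar is the list's median; hormone receptors sit on the female side at -0.87, and adipocyte (0.59) and erythroid (0.96) markers on the male side.

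Where genes were abundant, the female pool held more of the large differences. Among 1366 genes with at least 3000 normalized counts in the higher pool, 58 (4.25%) reached 2-fold in favour of the female and 25 (1.83%) in favour of the male, while under 30 normalized counts 14.2% of 2423 genes did so for the male and 10.2% for the female. At least 100 normalized counts were reached by 239 male-higher and 258 female-higher genes. At that abundance long noncoding RNAs leaned to the male, with 28 of 264 (10.6%) at least 2-fold higher there and 8 (3.03%) in the female, against 184 (1.73%) and 237 (2.23%) of 10626 protein-coding genes. Of 17 small nucleolar RNAs 4 exceeded 2-fold on the male side and 0 on the female side. Rpph1, the RNA of RNase P, had 146520.0 and 71564, and Rmrp, the RNA of RNase MRP, 50613 and 22950.0. The part of depth or RNA handling in these values was not tested.

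**Figure D5:**
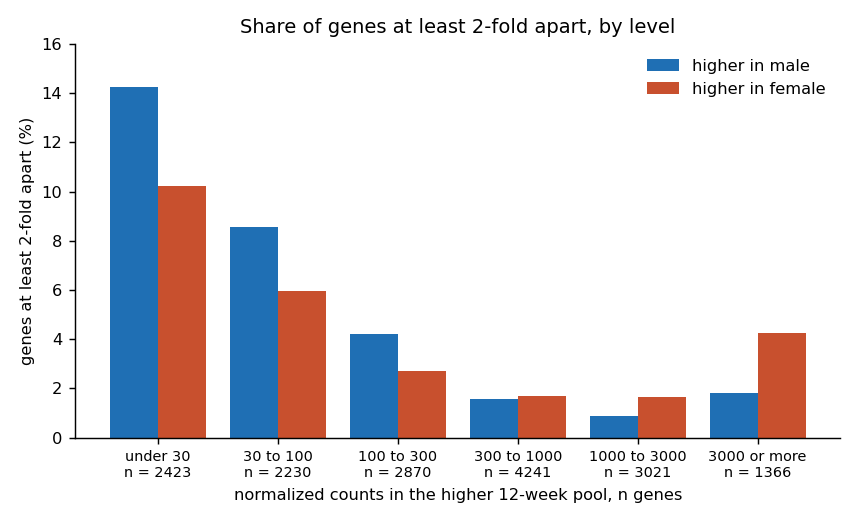
Share of genes (y axis, %) at least 2-fold higher in the 12-week male (blue) or female (orange) pool, by normalized counts in the higher pool (x axis, number of genes below each pair of bars). The male share is larger under 300 counts and the female share from 300 counts up, reaching 4.25% against 1.83% at 3000 or more.

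Most adult differences were small at 2 weeks. At 2 weeks 0.526% of the compared genes favoured the male by 2-fold or more and 3.68% the female, and at P1 3.75% and 3.03%. Of the 239 adult male-higher genes with at least 100 counts, 1 was at least 2-fold higher in the male at 2 weeks and 8 in the female, and 200 (83.7%) were less than 1.5-fold apart. Of the 258 adult female-higher genes, 9 exceeded 2-fold on the female side at 2 weeks and 0 on the male side, and 229 (88.8%) were less than 1.5-fold apart. Over all 11498 genes of that abundance, 0.0261% were higher in the male and 0.365% in the female by 2-fold or more at 2 weeks, and 97.9% were less than 1.5-fold apart.

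Set against both 2-week pools with a 2-fold margin, the adult differences took several forms, given as a description of single pools. For 130 of the 239 male-higher genes the adult male alone lay above both 2-week pools, for 54 the adult female alone lay below both, for 1 both held and for 54 neither. For the 258 female-higher genes the adult female alone lay above in 63, the adult male alone below in 87, both in 4 and neither in 104. Among the 26 female-higher genes called in limma the adult male lay below both 2-week pools in 20, as in Nrep (5583 and 8046 at 2 weeks, 232 in the adult male and 3293 in the adult female), a neuronal regeneration protein gene, and Col5a3 (2655 and 2986, then 846 and 5377), a fibrillar collagen gene. The adult female lay above both in 7, with 3 genes in both counts. Of the 7 male-higher calls, the adult male lay above both in 4 and the adult female below both in 4, with 1 in both counts. The 2-week differences entered the fit, so genes with close 2-week pools were called more easily.

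The half-site AAGGTCA was searched on both strands of the 250-base windows and was held by 2.67% of 8701 genes with at least 100 counts and a listed window, by 6 of 164 male-higher genes (3.66%) and by 7 of 180 female-higher genes (3.89%). The cyclic AMP response element TGACGTCA was held by 2.90% of all, 0 of 164 and 2 of 180 (1.11%), and the androgen and glucocorticoid receptor half-site AGAACA by 9.99%, 11.6% and 11.7%. The motifs were counted separately, and the shares are given without a test.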

How the data were processed

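RNA from pooled adrenal glands was sequenced in 7 libraries, 1 per group. Normalized counts (a signal per gene, read counts over size factors) were deposited by the authors in 1 table of 35976 symbols. Per the submitters' processing notes, which give no role or order, CASAVA 1.8.2, HISAT2 2.1.0, HTSeq 0.9.1 and DESeq2 2.11.40.6 were used with build mm10. Use of strand is not given in the sources used here, so overlapping and antisense genes cannot be told apart. In the deposited signal, 100.0% of values were whole multiples of 1 step per library within 0.01 reads (largest deviation 0.000114), so whole reads were recovered, and the edgeR quasi-likelihood test run on them called 4 genes (1734 at an unadjusted p under 0.05). The labels give no difference in sequencing run between libraries.

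Of 16720 genes with a mean of at least 10, chromosomes came from RefSeq GRCm38.p6 by symbol (15750) or synonym (575), or from GENCODE by symbol (39). The 356 unmatched genes, including some of 15 symbols turned into dates, were kept, and 564 X-linked and 5 Y-linked genes were left out. Just inside the mean limit was 6820408C15Rik (10.005) and just outside it Olfr329-ps (9.997). The limma 3.58.1 fit (R 4.3.3, eBayes with a trend, two-sided, Benjamini-Hochberg over 16720 genes) used log2(normalized count + 1) of the 6 postnatal libraries, blocked by age, and a term for the 12-week male. It made 33 calls, and 2013 genes had an unadjusted p under 0.05. edgeR was version 4.0.16. In 5 simulated runs limma recovered 65 to 85% of 4-fold and 10 to 15% of 2-fold changes, and edgeR 72 to 85% and 14 to 20%. Those changes were planted at 12 weeks only, in genes above a set level, so the shares describe the simulated spread.

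Named genes are the 15 highest and 15 lowest differences with at least 100 normalized counts in the higher pool, the 8 largest differences in normalized counts in each direction among genes at least 2-fold apart, and members of gene lists; genes called in limma and some others were named after their values were seen. Some genes are not reported here. Members and lists were chosen with earlier results of these data known. The alternatives were other pseudocounts, filters, scalings, fold limits and fits. Intervals describe counting error alone, because the reads carried no molecular identifiers and are not independent molecules.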

Additional observations from a re-analysis of the deposited data

Results flagged for a closer look

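In 2 of the genes chosen for naming the male minus female difference had opposite signs at 12 weeks and at 2 weeks, at least 2-fold each way (over all compared genes this held for 130 of the 775 adult male-higher and 9 of the 639 adult female-higher genes); with 1 pool per group the difference between ages was not tested. Cabp1, a calcium-binding protein gene, had a log2 difference of 2.78 at 12 weeks (138 and 19.2 normalized counts) and -1.15 at 2 weeks (17.8 and 40.58). LOC101056014 had 1.72 at 12 weeks (59165 and 17959.5) and -3.22 at 2 weeks (50405 and 468169), and its level ran from 1473 in P1 male to 524646 in P1 female.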

How the results depend on the processing

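The 2-fold counts moved with the treatment of low genes. The total of 1414 was 777 at a mean of at least 50, 5034 with no filter and 261 at a 4-fold limit. The male-higher 775 became 500 with a pseudocount of 5, 400 at a mean of at least 50, 2622 with no filter and 117 at 4-fold; the female-higher 639 became 377, 2412 and 144 under the last 3. Genes male-higher at both 12 and 2 weeks (13) were 25 with a pseudocount of 0.1, 3 with 5, 2 at a mean of at least 50, 158 with no filter and 22 with equal totals. Those female-higher at both (89) were 26 with a pseudocount of 5, 45 at a mean of at least 50 and 265 with no filter. Genes male-higher at 12 weeks and P1 (78) were 24, 25 and 408 under these settings, and female-higher (41) 21, 19 and 295. The 33 limma calls became 55 with a pseudocount of 0.1, 601 with no filter, 0 without the trend (1870 at an unadjusted p under 0.05), 3 without the P1 pair and 4 in edgeR. The 7 male-higher calls became 18, 285, 0, 1 and 1 in the same order, and the 26 female-higher calls 316 with no filter, 0 without the trend, 2 without the P1 pair and 3 in edgeR. No named gene of 42 changed sign under the pseudocounts and scalings. Of 210 values, 197 stayed inside the gene's counting interval, or within 1 log2 unit where a pool had no read, and 13 did not. That interval is narrow for abundant genes, so leaving it need not be a large shift. Rpph1 left it by going from 1.03 to 1.07 with equal totals. Of 363 values for the 33 called genes, 121 no longer passed and 0 changed sign. The median of the UDP-glucuronosyltransferase list turned from 0.12 to -3.74 at a mean of at least 50, and that of the hormone receptors moved from -0.87 to -0.30 there and to -0.98 and -0.65 with pseudocounts of 0.1 and 5. The other 6 medians that moved, of 174 values, kept their sign. Scalings put the median over all genes between 0.01 and 0.06.

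Pairing by replicate number was not possible, because each group has 1 library. The limma fit was instead blocked by age. Of the compared genes, 564 were at or under 3 reads in both adult pools, and 186 of these still counted as 2-fold apart.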

Other observations

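Cyclic nucleotide phosphodiesterases went both ways between the adult pools. Pde8b, a cyclic AMP phosphodiesterase of the adrenal cortex, had 1275 normalized counts in the male and 3019.6 in the female pool. Pde7a, also specific for cyclic AMP, had 1251 and 4351 (3.48-fold; adjusted p 0.0241 in limma, 0.139 without the P1 pair). Pde10a was higher in the male at 2821 against 1349. Over the 26 genes of the cyclic AMP signalling list, which does not hold Pde7a, 2 reached 2-fold in favour of the male and 1 of the female. Their median log2 difference was 0.10.

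Of the 19 clock genes 1 was at least 2-fold higher in the male pool and 3 in the female, with a median log2 difference of -0.08. Cry2, a clock repressor, had 528 and 1205, and Nfil3, a repressor of clock output, 303 and 855. Dbp, a strongly cycling output gene, had 2833 and 3002. Of 19 cell cycle genes 1 was at least 2-fold higher in each pool, and their summed levels were 2965 (male) and 3056 (female) against 28949 and 29465 at 2 weeks.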
